A study of Homo sapiens with 6 samples.

Results

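Transcripts of 10 genes of the IAP proteins and of death receptor signalling were examined in H9 cells, a cutaneous T-cell lymphoma line that the study classes as MCL-1 independent. The genes were taken by their symbols from a table of 61541 genes, in which each of the 10 had 1 entry, and all 10 were among the 17678 genes that passed the filter on low counts. They comprise the IAP genes XIAP, BIRC2, BIRC3 and BIRC5, the receptor genes FAS, TNFRSF10A and TNFRSF10B, and FADD, CASP8 and CFLAR, whose products assemble at an engaged receptor. Wild-type H9 cells in RPMI with serum received vehicle (DMSO, 3 libraries) or AZD4573, a selective inhibitor of the transcriptional kinase CDK9 (3 libraries). The labels give 4 h of AZD4573 and the legends of the study give 50 nM, while no time is given for DMSO. A single cell line was used, and normal T cells were not analysed here.

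Death receptors are transmembrane proteins that, when bound by Fas ligand or TRAIL, recruit the adaptor FADD and procaspase-8 into a death-inducing signalling complex (DISC). Caspase-8 activated there starts a proteolytic cascade, and c-FLIP, the product of CFLAR, competes with procaspase-8 for a place in the complex. Of the IAP proteins, XIAP acts further along, where it binds and blocks active caspases. The proteins cIAP1 and cIAP2 (BIRC2 and BIRC3) are ubiquitin ligases of the TNF receptor complex. Survivin (BIRC5) also works in mitosis as a subunit of the chromosomal passenger complex. In T cells, Fas takes part in activation-induced cell death.

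Total counts ranged from 70367303 to 76571157 with DMSO and from 52101868 to 63795185 with AZD4573. The 13 mRNAs of the mitochondrial genome made up 3.13% ± 0.0929 (SD, n = 3) of each DMSO library and 4.85% ± 0.162 (SD, n = 3) of each AZD4573 library. Scaling the libraries to these mRNAs shifted the median log2 fold change over the genes tested from 0.03 to -0.71, so that each direction below is given relative to the bulk of the transcriptome unless the mitochondrial scaling is named. In bulk libraries, fewer cells of a type and less RNA per cell cannot be told apart. Of 8 T-cell markers, 7 were at 1 CPM or more (normalised read count, per 1000000 counts of the TMM-scaled library) with DMSO, among them CD3E, CD3D and LCK, whereas CD2 had between 0 and 13 counts in a library. The 5 myeloid markers together reached at most 0.649 CPM. The summed T-cell markers ranged from 675 to 708 CPM with DMSO and from 919 to 939 CPM with AZD4573. Within this sum, CD28 went the other way, from 5.85 to 4.35 CPM. CD79A, a B-cell marker, went from 57.8 to 93.6 CPM, whereas CD79B, another B-cell marker, went from 5.66 to 3.46 CPM. MS4A1 and PAX5 stayed below 1 CPM. EPCAM, an epithelial marker, went from 155 to 134 CPM. The part of these markers in the results was not tested.

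Upon AZD4573 treatment, CFLAR and BIRC2 rose most among the 10 genes, and FADD fell most. By edgeR's quasi-likelihood test, with p-values adjusted by the Benjamini-Hochberg method and a threshold of 0.05, 6 members were higher, against a background of 37.3% of all genes tested, and 2 were lower, against 37.4%, together 8 of 10 against 74.7%. With a fold change of at least 1.5 in addition, 2 were higher (background 22.7%) and 1 was lower (background 23.7%), together 3 of 10 against 46.4%. The median log2 fold change of the members was 0.16, beside 0.03 for all genes tested. Each AZD4573 library lay above each DMSO library for 6 members (background 39.0%) and below for 2 (background 38.7%), together 8 of 10 against 77.8%. The members were thus called and separated about as often as genes in general. The count of 2 members higher by at least 1.5-fold was 1 without DMSO replicate 1, DMSO replicate 3, AZD4573 replicate 2 or AZD4573 replicate 3, because BIRC2 lay at the threshold. Of all genes tested, between 21.2% and 22.6% were then higher by this fold. The count of 1 member lower by at least 1.5-fold was 0 without DMSO replicate 1 (23.2% of all genes tested) or AZD4573 replicate 1 (23.8%). Scaled to the mitochondrial mRNAs, 9 members were lower and CFLAR alone was higher, where 67.2% of all genes tested were lower and 12.1% higher.

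**Figure D1:**
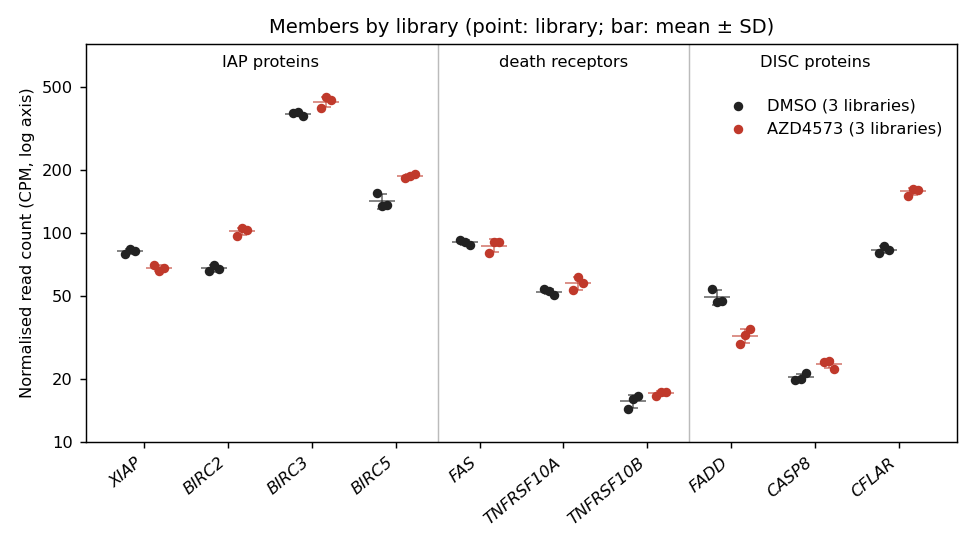
Normalised read counts (CPM with TMM scaling, log axis) of the 10 members in the 3 DMSO libraries (black) and the 3 AZD4573 libraries (red), with the mean and SD of each group as a bar. The CFLAR libraries lie between 80.4 and 86.6 CPM with DMSO and between 151 and 162 CPM with AZD4573, while the groups of FAS and TNFRSF10A overlap.

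Among the IAP genes, BIRC2, BIRC5 and BIRC3 rose, and XIAP fell. BIRC2 (ENSG00000110330, chromosome 11 of GRCh38 from 102347211 to 102378670) encodes cIAP1. Its transcripts were at 65.5, 70.1 and 67.6 CPM with DMSO and at 97.1, 105 and 103 CPM with AZD4573. The lowest AZD4573 library thus exceeded the highest DMSO library by a wide margin relative to the spread in either group. BIRC2 rose by a log2 fold change of 0.59 (standard error 0.0484, edgeR adjusted p = 1.06e-07). BIRC3 (ENSG00000023445, 102317484 to 102339403), the gene of cIAP2 and a well-known NF-kB target, ends 7807 bases before BIRC2 begins, on the same strand. It was at 374, 378 and 364 CPM with DMSO and at 397, 445 and 430 CPM with AZD4573. The groups did not overlap, but the rise was small, with a log2 fold change of 0.19 (standard error 0.0468, edgeR adjusted p = 0.00236). With library size as the only scaling it no longer passed the test (0.08, edgeR adjusted p = 0.0845, the highest over all alternatives). BIRC3 and BIRC2 both turned negative when scaled to the mitochondrial mRNAs (-0.55 and -0.15). The lowest value of BIRC3 over all alternatives belonged to that fall (edgeR adjusted p = 6.10e-08).

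The sequences upstream of the neighbouring genes BIRC3 and BIRC2 are shown because the 2 genes lie side by side in the same orientation and rose by different amounts. They run 5′ to 3′ on the forward strand of GRCh38.p14 up to the start of the gene, from chr11:102317234-102317483 for BIRC3 and from chr11:102346964-102347210 for BIRC2, and capitals mark matches to the NF-kB consensus on either strand.
BIRC3: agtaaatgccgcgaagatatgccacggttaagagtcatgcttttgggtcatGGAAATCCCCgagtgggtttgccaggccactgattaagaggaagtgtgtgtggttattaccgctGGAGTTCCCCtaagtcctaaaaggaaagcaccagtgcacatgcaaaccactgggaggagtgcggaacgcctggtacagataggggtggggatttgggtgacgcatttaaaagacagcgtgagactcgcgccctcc
BIRC2: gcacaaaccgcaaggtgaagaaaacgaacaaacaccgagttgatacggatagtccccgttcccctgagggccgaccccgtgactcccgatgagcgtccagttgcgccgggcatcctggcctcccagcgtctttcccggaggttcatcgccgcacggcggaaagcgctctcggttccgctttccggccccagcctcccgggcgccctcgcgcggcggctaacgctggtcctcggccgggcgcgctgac
The BIRC3 window held 2 matches, beginning 199 and 135 bases before the start, and the BIRC2 window held none. Of 34788 distinct windows of 250 bases before a RefSeq start, 9.95% held at least 1 match. The motifs TATAAA (10.8% of windows), CCAAT (32.0%), TGACGTCA (1.64%), TTCNNNGAA (6.57%) and GGGCGG (42.6%), searched on both strands after the sequences had been seen, were in neither window. The GC content was 52.4% for BIRC3 and 67.6% for BIRC2, beside a median of 58% over all windows. A match describes the letters only, since no binding was measured here.

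BIRC5 (ENSG00000089685, chromosome 17 from 78214186 to 78225636) was at 156, 134 and 136 CPM with DMSO and at 184, 188 and 191 CPM with AZD4573. DMSO replicate 1 stood above the other DMSO libraries but below each AZD4573 library. BIRC5 rose by a log2 fold change of 0.40 (standard error 0.0543, edgeR adjusted p = 1.57e-05), with 0.35 and 0.46 as the extremes when single libraries were omitted. Of 4 listed partners of survivin in the chromosomal passenger complex, 3 fell (37.4% of all genes tested) and 1 rose (37.3%). AURKB, INCENP and CDCA8, respectively the kinase, the scaffold and borealin, had log2 fold changes of -0.38, -0.45 and -0.76 (edgeR adjusted p = 1.51e-06, 1.04e-05 and 5.44e-09). Scaled to the mitochondrial mRNAs, BIRC5 was also lower (-0.34), as were AURKB (-1.12), INCENP (-1.19) and CDCA8 (-1.50). AURKC, the kinase mainly known from germ cells and named after its values were seen, was near the limit of detection with 6, 14 and 14 counts with DMSO and 40, 32 and 41 counts with AZD4573 (edgeR adjusted p = 0.000289).

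XIAP (ENSG00000101966, chromosome X from 123859712 to 123913972) was at 79.7, 83.8 and 81.5 CPM with DMSO and at 70.4, 66.0 and 67.7 CPM with AZD4573. Each AZD4573 library was below each DMSO library. XIAP fell slightly, with a log2 fold change of -0.26 (standard error 0.0461, edgeR adjusted p = 0.000153), and it was called under every alternative run. XIAP has 3 annotated pseudogenes, which had between 0 and 4 counts in a library. The exons of XIAP, BIRC2 and BIRC5 share no base with another gene, and those of BIRC3 share 126 of 7484 bases with 1 antisense gene of at most 26 counts.

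The death receptor genes changed least. FAS (ENSG00000026103, chromosome 10 from 88953813 to 89029605), the receptor of Fas ligand, was at 92.3, 90.3 and 87.5 CPM with DMSO and at 79.8, 90.5 and 90.4 CPM with AZD4573. Only AZD4573 replicate 1 lay outside the DMSO range. The log2 fold change was -0.05 (95% interval -0.17 to 0.07, edgeR adjusted p = 0.405), and without AZD4573 replicate 1 it was 0.0028. The exons of FAS share 2065 of 29313 bases with 3 genes. The longest stretch, 1899 bases, is shared with the antisense gene ENSG00000286116, which had between 50 and 154 counts in a library and a log2 fold change of -0.41 (edgeR adjusted p = 0.109). ACTA2 on the opposite strand shares 387 bases and STAMBPL1 on the same strand 166 bases, with log2 fold changes of 0.66 and -2.35. In a library, ACTA2 had between 69153 and 95435 counts and STAMBPL1 between 164 and 1524, where FAS had between 4059 and 7244. Because the counting ignored strand, reads of shared bases cannot be told apart.

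TNFRSF10A and TNFRSF10B (ENSG00000104689 and ENSG00000120889, chromosome 8 from 23190452 to 23225102 and from 23020133 to 23069031) encode the TRAIL receptors that carry a death domain. TNFRSF10A was at 53.7, 52.9 and 50.6 CPM with DMSO and at 53.5, 61.5 and 57.7 CPM with AZD4573. The groups overlapped, since AZD4573 replicate 1 lay within the DMSO range. Its log2 fold change was 0.14 (standard error 0.0565, edgeR adjusted p = 0.0435). Over all alternatives, the highest value was that with library size only (edgeR adjusted p = 0.613). The lowest (edgeR adjusted p = 3.11e-07) came with the mitochondrial scaling, where TNFRSF10A was lower (-0.61). The call was lost without DMSO replicate 2 (0.13), DMSO replicate 3 (0.10), AZD4573 replicate 2 (0.08) or AZD4573 replicate 3 (0.13). DESeq2 (0.12), an unfiltered table (0.09) and scaling by library size alone (0.03) also lost it. Its exons share 490 of 2927 bases with TNFRSF10A-AS1 and TNFRSF10A-DT on the opposite strand, which rose by 1.05 and 0.58 on the log2 scale. TNFRSF10B was at 14.4, 16.1 and 16.5 CPM with DMSO and at 16.6, 17.4 and 17.4 CPM with AZD4573. It did not pass the test (log2 fold change 0.13, 95% interval -0.02 to 0.28, edgeR adjusted p = 0.115), although its groups were narrowly separated. Without DMSO replicate 1 the value was 0.06, and omitting the other libraries singly gave 0.11 to 0.16. Its exons share 377 of 5010 bases with RHOBTB2 on the opposite strand, which had a log2 fold change of -1.32. All 3 receptor genes were lower when scaled to the mitochondrial mRNAs (FAS -0.79, TNFRSF10A -0.61, TNFRSF10B -0.61).

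The genes of the DISC proteins diverged, with CFLAR and CASP8 higher and FADD lower. CFLAR (ENSG00000003402, chromosome 2 from 201116154 to 201176687) encodes c-FLIP, the inhibitor of caspase-8 activation. It was at 80.4, 86.6 and 82.5 CPM with DMSO and at 151, 162 and 161 CPM with AZD4573. The groups were far apart, and the log2 fold change of 0.92 (standard error 0.0466, edgeR adjusted p = 9.86e-10) corresponds to a 1.90-fold rise. CFLAR was the one member still higher when the libraries were scaled to the mitochondrial mRNAs (0.19, edgeR adjusted p = 0.00855, the highest over all alternatives). The lowest over all alternatives was that of another test (DESeq2 adjusted p = 2.80e-68). The main log2 fold change of CFLAR was above that of 83.4% of the genes tested, so that larger rises were common in these libraries. Other genes, 3 in number, share 2710 of its 22478 exon bases, each with at most 186 counts in a library, where CFLAR had from 6078 to 9825.

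CASP8 (ENSG00000064012, chromosome 2 from 201233443 to 201361836), the initiator caspase of the complex, was at 19.9, 20.1 and 21.3 CPM with DMSO and at 24.1, 24.5 and 22.4 CPM with AZD4573. The groups were separated by a narrow gap. The log2 fold change was 0.21 (standard error 0.0619, edgeR adjusted p = 0.00763), and the call was lost with library size as the only scaling (0.10, edgeR adjusted p = 0.158) and without the filter (0.17, edgeR adjusted p = 0.0503). When scaled to the mitochondrial mRNAs it turned to -0.53. The exons of CASP8 share 343 of 7237 bases with ENSG00000289698 on the same strand, a gene for which no counts were given.

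FADD (ENSG00000168040, chromosome 11 from 70203296 to 70207390), the adaptor that links receptor and caspase, was at 53.9, 46.5 and 47.4 CPM with DMSO and at 29.6, 32.4 and 34.8 CPM with AZD4573. Each AZD4573 library was below each DMSO library. FADD fell with a log2 fold change of -0.61 (standard error 0.0713, edgeR adjusted p = 3.51e-06), and omitting single libraries gave values from -0.67 to -0.55. An antisense gene covers 1011 of the 1708 exon bases of FADD and was assigned at most 1 count in a library. As for FAS, reads of the shared bases cannot be told apart, because the counting ignored strand. The 250 bases before FADD, the gene that fell most, are shown for comparison with those of BIRC2 and BIRC3, from chr11:70203046-70203295 on the forward strand, with matches to GGGCGG on either strand in capitals.
FADD: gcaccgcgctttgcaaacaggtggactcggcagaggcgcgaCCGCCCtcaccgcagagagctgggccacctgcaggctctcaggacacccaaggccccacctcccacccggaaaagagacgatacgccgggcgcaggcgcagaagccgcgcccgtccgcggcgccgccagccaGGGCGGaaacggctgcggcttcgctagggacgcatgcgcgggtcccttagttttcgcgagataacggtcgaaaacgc
This window held 2 matches to GGGCGG, a motif present in 42.6% of all windows, no match to the NF-kB consensus and none to the other motifs searched. Its GC content was 68.8%.

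**Figure D2:**
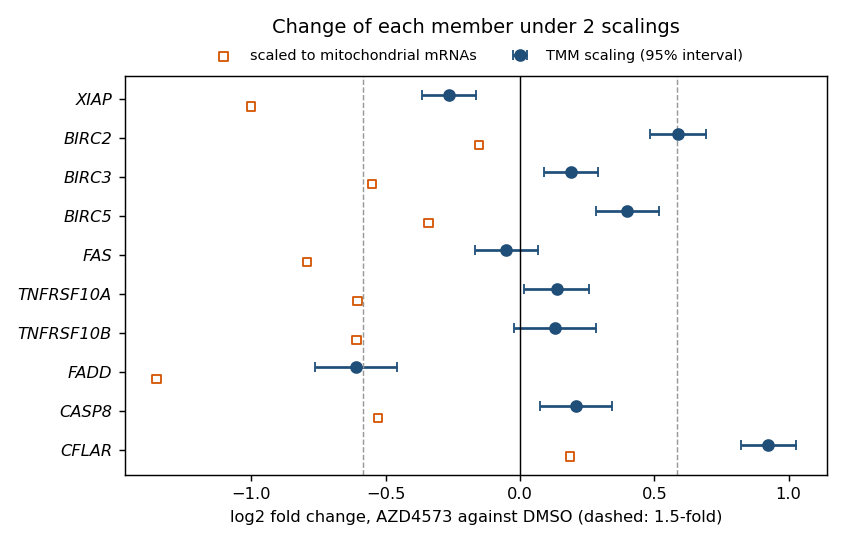
The log2 fold change of each member upon AZD4573 treatment with TMM scaling (blue circles with 95% intervals) and with the libraries scaled to the 13 mitochondrial mRNAs (orange squares). Dashed lines mark 1.5-fold. CFLAR (0.92 and 0.19) stays positive under both, FADD (-0.61 and -1.35) and XIAP (-0.26 and -1.001) stay negative, and the squares lie to the left of the circles for each member.

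Ratios between members within 1 library do not depend on how the libraries are scaled to each other. The ratio of CFLAR to CASP8 counts was 4.03, 4.31 and 3.87 with DMSO and 6.27, 6.60 and 7.19 with AZD4573, a 1.64-fold rise. The ratio of FADD to CASP8 counts was 2.71, 2.32 and 2.22 with DMSO and 1.23, 1.32 and 1.55 with AZD4573, a change to 0.566 of the DMSO value. Relative to CASP8, therefore, its inhibitor gained and its adaptor lost transcripts in each library. The ratio of XIAP to BIRC2 counts fell from between 1.19 and 1.22 to between 0.626 and 0.725, and that of BIRC3 to BIRC2 counts from between 5.38 and 5.70 to between 4.09 and 4.22. The ratio of FAS to TNFRSF10B counts fell from between 5.29 and 6.43 to between 4.81 and 5.21. The groups did not overlap in these 5 ratios (exact two-sided permutation test, p = 0.1, the smallest that 3 against 3 libraries allow). The ratio of TNFRSF10A to TNFRSF10B counts overlapped between the groups (exact permutation p = 1), with a log2 difference of 0.0026. Adjusted over the 6 ratios by the Benjamini-Hochberg method, these exact permutation p-values were 0.12 and 1, and no ratio can reach 0.05 in this design.

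**Figure D3:**
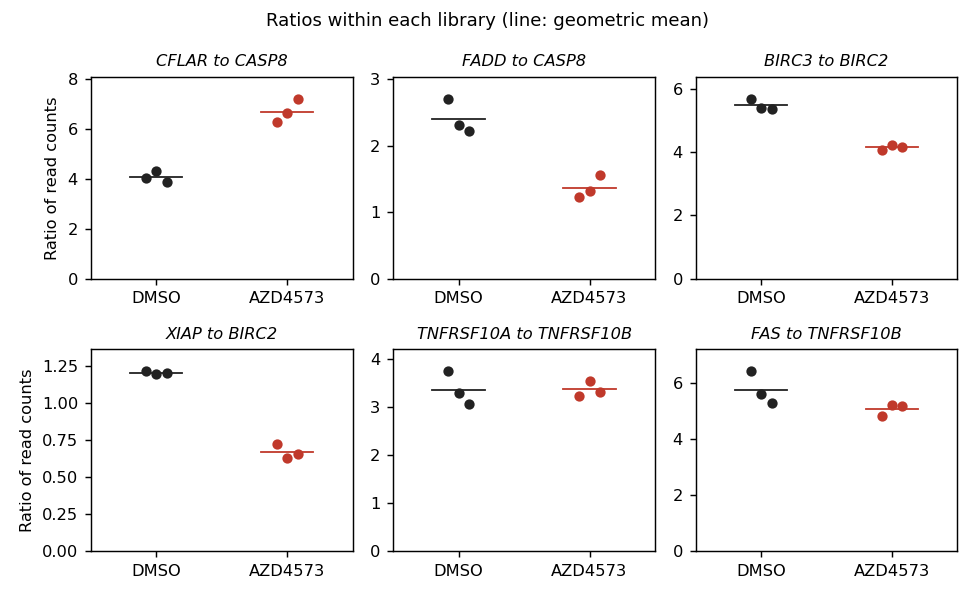
Ratios of read counts between 2 members within each library (points), with the geometric mean of each group as a line and a linear axis from 0. The CFLAR to CASP8 ratio lies between 3.87 and 4.31 with DMSO and between 6.27 and 7.19 with AZD4573, while the TNFRSF10A to TNFRSF10B ratios overlap.

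To compare the genes with each other, CPM were divided by the length of the MANE Select transcript in kb. With DMSO, BIRC5 (55.2 ± 4.56 CPM per kb, SD, n = 3) and BIRC3 (54.1 ± 1.09) were highest and overlapped. They were followed by FADD (28.9 ± 2.36), FAS (24.4 ± 0.653), TNFRSF10A (19.5 ± 0.587), BIRC2 (17.99 ± 0.618), XIAP (9.54 ± 0.236), CASP8 (7.69 ± 0.293), CFLAR (5.69 ± 0.216) and TNFRSF10B (3.92 ± 0.289), with no overlap between neighbours in this order. With AZD4573, BIRC5 (72.8 ± 1.37) and BIRC3 (61.7 ± 3.59) remained at the top and TNFRSF10B (4.28 ± 0.115) at the bottom. FADD moved from rank 3 to rank 6 (18.9 ± 1.51), where it overlapped with TNFRSF10A (21.4 ± 1.48), which in turn overlapped with FAS (23.5 ± 1.67). CFLAR (10.8 ± 0.407) passed both CASP8 (8.89 ± 0.417) and XIAP (7.95 ± 0.260). The isoforms behind the counts are not known, and over the merged exons of all isoforms FAS would stand at 3.07 and CFLAR at 3.70 CPM per kb with DMSO, so that the order depends on the length chosen.

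The wider pathway was examined through 49 further genes, of which 43 were tested, 25 were lower (37.4% of all genes tested) and 11 were higher (37.3%) at an adjusted p under 0.05. Their median log2 fold change was -0.31, beside 0.03 for all genes tested and 0.16 for the 10 members. Among 5 ligand genes, 2 were lower and 2 higher. TNFSF10, the gene of TRAIL, was at 211, 200 and 197 CPM with DMSO and at 100, 98.7 and 97.7 CPM with AZD4573 (log2 fold change -1.03, edgeR adjusted p = 1.90e-10). FASLG, named after its values were seen, had 77, 63 and 56 counts with DMSO and 0, 0 and 6 with AZD4573 (edgeR adjusted p = 1.73e-05). The ligands of the receptors examined here were thus both lower, while TNF (log2 fold change 0.89) and LTA (0.33) were higher (edgeR adjusted p = 6.08e-07 and 1.83e-05). LTA turned to -0.41 and TNF lost its call (0.15, edgeR adjusted p = 0.142) when scaled to the mitochondrial mRNAs.

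Among 7 other death and decoy receptors, 2 were lower (37.4% of all genes tested), 2 higher (37.3%), 1 did not pass the test and 2 were not tested. TNFRSF10D, a decoy that binds TRAIL without a complete death domain, had 85, 77 and 89 counts with DMSO and 444, 716 and 748 with AZD4573. This is 1.11 ± 0.0829 CPM (SD, n = 3) against 11.2 ± 2.13 CPM (SD, n = 3), or a log2 difference of 3.33 (standard error 0.155, edgeR adjusted p = 5.04e-10). The gene lies 26424 bases from TNFRSF10A, which had a log2 fold change of 0.14. TNFRSF6B, a soluble decoy for Fas ligand, went from 0.374 ± 0.225 to 2.14 ± 0.193 CPM (SD, n = 3), with a log2 fold change of 2.53 (edgeR adjusted p = 2.02e-05). TNFRSF21, named after its values were seen, was lower but had at most 30 counts in a library. TNFRSF1A, the main TNF receptor, fell from 81.6 ± 2.82 to 50.6 ± 3.23 CPM (SD, n = 3), with a log2 fold change of -0.69 (edgeR adjusted p = 7.60e-08). The called decoys were higher and TNFRSF1A lower also when scaled to the mitochondrial mRNAs (2.58 for TNFRSF10D, 1.79 for TNFRSF6B and -1.43 for TNFRSF1A).

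Among 13 adaptors and kinases of the TNF receptor complex, 6 were lower (37.4% of all genes tested), 4 higher (37.3%) and 3 did not pass the test. RIPK1, a kinase of the complex, was at 36.0, 37.5 and 36.4 CPM with DMSO and at 12.7, 11.7 and 10.5 CPM with AZD4573 (log2 fold change -1.66, edgeR adjusted p = 2.78e-10). OTULIN, which removes linear ubiquitin chains, and TRAF5, an adaptor, had log2 fold changes of -1.71 and -1.52 (edgeR adjusted p = 8.32e-11 and 2.79e-10). RBCK1, named after its values were seen and a subunit of the ligase that builds linear chains, rose from 254 ± 6.11 CPM to 448 ± 16.7 CPM (SD, n = 3), or by a log2 fold change of 0.82 (edgeR adjusted p = 1.25e-09).

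Of 9 other caspase and apoptosome genes, 7 were lower, beside 37.4% of all genes tested, while CASP9 (log2 fold change 0.17) and BID (-0.06), named after their values were seen, did not pass the test. CASP2, an initiator-type caspase, had a log2 fold change of -1.59 (edgeR adjusted p = 3.09e-11). CASP10, which lies between CFLAR and CASP8, is related to CASP8 and was named for its place, fell from 8.49 ± 0.754 CPM to 4.61 ± 0.186 CPM (SD, n = 3), or by a log2 fold change of -0.88 (edgeR adjusted p = 2.62e-06).

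Of 8 other IAP genes and IAP antagonists, 3 were lower (37.4% of all genes tested), 2 higher (37.3%), 1 did not pass the test and 2 were not tested. The higher genes, named after their values were seen, were NAIP (log2 fold change 0.63, edgeR adjusted p = 0.000236) and BIRC7, which had only 29, 33 and 24 counts with DMSO and 39, 28 and 45 with AZD4573 (0.80, edgeR adjusted p = 0.0331). The lower genes were the antagonists XAF1, DIABLO (Smac) and HTRA2, with log2 fold changes of -0.97, -0.88 and -0.79 (edgeR adjusted p = 6.12e-10, 3.02e-08 and 9.46e-08). DIABLO, whose product displaces caspases from XIAP, was at 67.6, 58.9 and 60.8 CPM with DMSO and at 35.8, 31.7 and 34.0 CPM with AZD4573. Its groups were far apart, and its fall was larger than that of XIAP (-0.26), a difference that was not tested. The necroptosis genes RIPK3 and MLKL also fell (-0.89 and -0.99, edgeR adjusted p = 0.000184 and 3.19e-08).

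**Figure D4:**
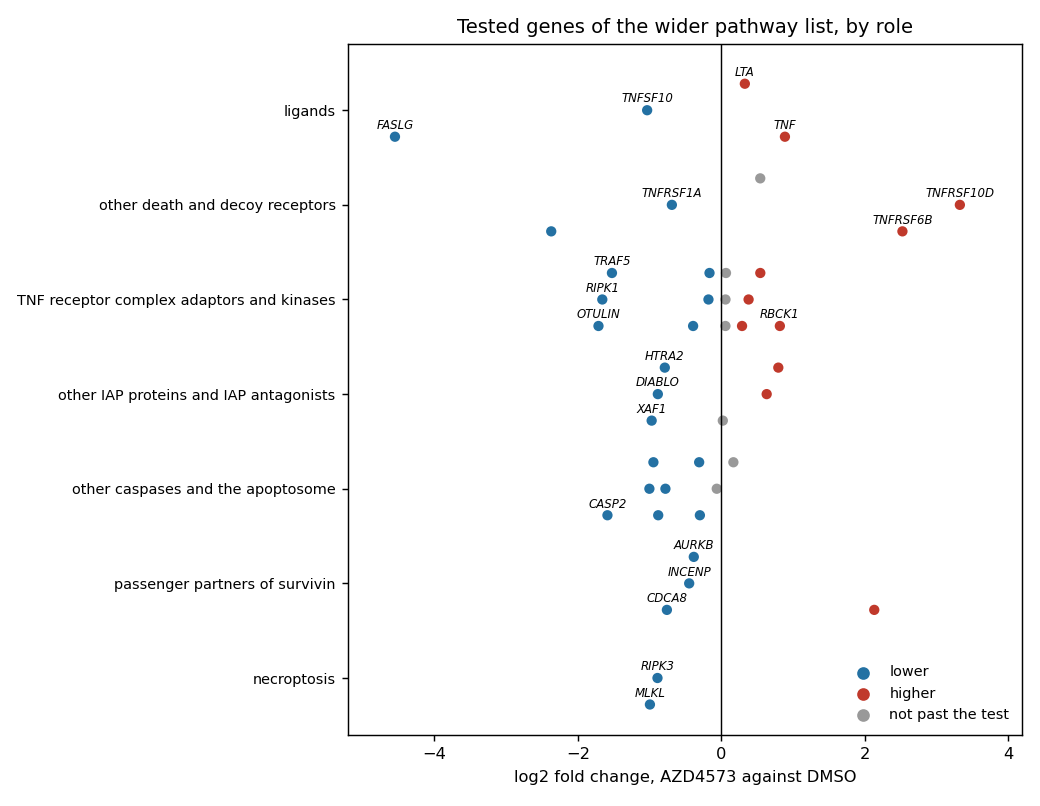
The log2 fold change upon AZD4573 treatment of the 43 tested genes of the wider pathway list (points, some of them labelled), arranged by role and coloured by the call at an adjusted p under 0.05 (blue lower, red higher, grey not past the test). The caspase and apoptosome genes hold 7 lower genes among 9, beside 37.4% of all genes tested, and the largest rise is that of TNFRSF10D (3.33).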

How the data were processed

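Bulk RNA-seq of H9 cells was analysed from 3 DMSO and 3 AZD4573 libraries, each mapped to its group by its label. According to the supplemental methods and the submitters' processing notes, the authors trimmed reads with cutadapt 2.3, aligned them to GRCh38 with STAR 2.7.8a and deposited expected counts per gene from RSEM 1.3.3, whose defaults ignore strand. The deposited estimated counts are integers and carry no scaling. Poly(A) RNA is named in the labels, but rRNA depletion in the supplemental methods.

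Genes were kept by edgeR's filter (minimum count 10), normalized by TMM and compared with the quasi-likelihood test of edgeR 4.0.16 in R 4.3.3, with Benjamini-Hochberg adjustment over the 17678 genes tested. A gene was called when its adjusted p was below 0.05. The study's fold threshold of 1.5 was applied as a second criterion. CPM values use the TMM-scaled library totals, and errors are SD over libraries. Intervals cover 95%. Nothing states that the replicates came from separate cultures, so that p-values measure only the spread between these libraries, which may be technical.

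The members, the wider pathway list and the alternatives were chosen with earlier results of these data known. All 10 members were named, and from each role of the pathway list the 3 genes with the largest absolute log2 fold change among those called and at 1 CPM or more in the higher group. Some genes that this rule takes are not reported here. Alternatives were RLE factors, library size only, scaling to the 13 mitochondrially encoded mRNAs, no filter, at least 10 counts in every library, DESeq2 1.42.0, a replicate block and each library left out in turn. The fits were tested on simulated data. Gene positions, exons and MANE Select transcripts came from GENCODE release 44, which held 61369 of 61541 gene identifiers. Upstream sequences came from RefSeq on GRCh38.p14, which matched 7 of the 10 members.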

Additional observations from a re-analysis of the deposited data

How the results depend on the processing

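Scaling changed these results most. No spike-in was analysed here, so that transcripts per cell were not measured. Scaled to the mitochondrial mRNAs, 9 members were lower and 1 higher (67.2% and 12.1% of all genes), 5 were lower and 0 higher by at least 1.5-fold (53.4% and 10.0% of all genes), and 3 pathway genes were higher and 35 lower. The log2 fold changes then reversed for BIRC2 (-0.15), BIRC3 (-0.55), BIRC5 (-0.34), TNFRSF10A (-0.61), TNFRSF10B (-0.61), CASP8 (-0.53) and LTA (-0.41), and FAS passed the threshold (-0.79). Relative to the median of all genes, CFLAR stood at 0.90 and FADD at -0.64 under both scalings. Rescaling shifts each gene and the median by nearly the same amount, so that this agreement tests nothing. With library size only, 3 members were higher (32.5% of all genes), 1 of them by at least 1.5-fold (19.5% of all genes). There, BIRC3 (0.085), TNFRSF10A (0.031) and CASP8 (0.10) lost their call and FAS (-0.16) gained one. No filter and DESeq2 each left 1 member higher by at least 1.5-fold (14.5% and 17.2% of all genes). Without the filter TNFRSF10A (0.094) and CASP8 (0.17) lost their call, as did TNFRSF10A with DESeq2 (0.12). With at least 10 counts in every library, 0 members were lower by at least 1.5-fold, beside 3660 of 15247 genes tested. TNFRSF10B passed the threshold under this filter (0.17). At a fold threshold of 2, 0 members were lower and 0 higher, and the share of all genes was not counted there. For these settings the cause was not tested.

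With each library left out in turn, 2 members were lower (35.1% to 36.4% of all genes) and between 5 and 6 higher (34.2% to 36.2%). By at least 1.5-fold, between 0 and 1 were lower (22.9% to 23.8% of all genes) and between 1 and 2 higher (21.2% to 22.6%). FAS ranged from -0.085 to 0.0028 and TNFRSF10A from 0.082 to 0.18, and TNFRSF10B from 0.060 to 0.16. Whether the replicate numbers pair the libraries was not settled. Correlations of the deviations were -0.0208, 0.0417 and 0.0316 for the same number. For different numbers they ranged from -0.0551 to 0.0199, and values this small cannot decide the question. With the replicate block, 5 members were higher (36.5% of all genes), since TNFRSF10A lost its call (0.13, edgeR adjusted p = 0.0518), and no other member changed its call. Of 130 values of the members under the alternatives, 109 had the direction and the call of the main result, 11 lost the call, 3 gained one and 7 reversed. FASLG, TNFRSF6B, TNFRSF21, BIRC7 and AURKC rest on few counts.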

Other observations

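The neighbours of the 10 genes are given as values only, since 74.7% of all genes tested were called. CFLAR, CASP10 and CASP8 follow each other on the forward strand of chromosome 2, with gaps of 6184 and 4014 bases, and had log2 fold changes of 0.92, -0.88 and 0.21. TRAK2, the next protein-coding gene after CASP8, fell by 2.39 on the log2 scale (edgeR adjusted p = 1.11e-10). TMEM123, which follows BIRC2 on chromosome 11 after 17661 bases on the other strand, had a log2 fold change of 0.65, close to the 0.59 of BIRC2 (edgeR adjusted p = 2.58e-08). PPFIA1, the next protein-coding gene after FADD, fell with a log2 fold change of -0.85 (edgeR adjusted p = 2.28e-08), beside -0.61 for FADD. THOC2 and STAG2, on either side of XIAP (-0.26), had log2 fold changes of 0.34 and 0.22 (edgeR adjusted p = 3.05e-06 and 0.000209).

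The genes with the profile most like that of CFLAR, by the Euclidean distance of log2 CPM centred over the 6 libraries, were KLHL28 (distance 0.0468, log2 fold change 0.91), PARVG (0.0536, 0.94) and CFP (0.0633, 0.93). Those most like FADD were NUDT9 (distance 0.0326, log2 fold change -0.60), SMAGP (0.0971, -0.67) and MMAA (0.107, -0.55). The 6 libraries hold 1 treatment contrast, and no test was made on these distances.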
